A study of Mus musculus with 6 samples.

Results

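The insulin-like growth factor (IGF) genes described here are the ligands Igf1 and Igf2, the receptors Igf1r and Igf2r, and the binding proteins Igfbp2 to Igfbp7. They were chosen by gene name. Each of the 10 had 1 probe set that the platform annotation assigns to a single gene, out of 22180 genes measured. KrP fibroblasts were set against WT fibroblasts, with 3 samples each and 1 microarray per sample. Both groups came from the ventral skin of female mice aged 8 to 12 weeks on a C57BL/6 background, and the WT mice were littermates of the KrP mice. KrP mice carry the K14-PTHrP transgene, which expresses parathyroid hormone-related protein in the epidermis under the keratin 14 promoter, and their ventral skin is described as nipple-like. The promoter is active in keratinocytes, which the sort was set to leave out, and Pthlh, the gene of the hormone, was not analysed here, so no direct check of the genotype was made. The WT skin is labelled as telogen, the resting phase of the hair cycle, and the labels give no hair cycle phase for KrP skin. Cells were pooled and then sorted as viable cells that carried CD140 but not CD31, CD45, CD117 or CD49f. The labels name 3 mice as the source of cells without saying whether this was per sample, so p-values reflect how far these samples spread, and that spread may be technical. One array, WT 2, stood apart most in its keratinocyte markers. It also had the highest mean of the WT arrays in all lists of markers of other cell types. Values without it are given below, with the cell type markers.

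IGF-I and IGF-II are secreted peptides related to insulin that promote growth and survival through the receptor tyrosine kinase Igf1r. Igf2r has no kinase. It takes up IGF-II for breakdown and carries enzymes tagged with mannose 6-phosphate to lysosomes. The binding proteins hold the ligands outside cells, where they can withhold, store or deliver them, and proteases that cut the binding proteins release the ligand. Dermal fibroblasts are a source of IGF-I for the overlying epidermis and hair follicles, and stromal IGF-I, which is made in response to growth hormone, is known for its part in mammary duct growth.

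The IGF genes changed in both directions in KrP fibroblasts. Igf1 rose 3.36-fold and Igfbp6 2.48-fold, while Igfbp2 was 3.60-fold lower and Igf2r 1.62-fold lower. These 4 passed limma at an adjusted p under 0.05, the threshold used throughout, with 2 higher and 2 lower among the 10 genes. Over all genes 2.18% passed, 1.15% higher and 1.03% lower. That share includes genes of low level. With the 50% of genes of lowest mean level left out, 548 genes passed limma, among them the same 4 IGF genes. Of the genes kept, 24% then had an unadjusted limma p under 0.05, against 16% of all genes in the main fit. For the IGF genes this was 7 of the 10 in either fit. The values of the 3 KrP and the 3 WT arrays did not overlap for 7 of the 10 genes, which were Igf1, Igf1r, Igfbp4, Igfbp5 and Igfbp6 on the higher side and Igfbp2 and Igf2r on the lower. Over all genes, 20.3% showed such a gap, 11.4% with KrP higher and 8.93% with KrP lower. In a fit with the replicate numbers as blocks, 7 of the 10 passed, 5 higher and 2 lower, where 8.35% of all genes did, 5.33% higher and 3.02% lower. The 3 genes added were Igf1r, Igfbp4 and Igfbp5. The median log2 fold change was 0.28 over the 10 genes and 0.01 over all genes. All values in the text are the deposited log2 expression values, and log2 fold changes are KrP means less WT means. Because the RNA came from many cells at once, a smaller share of cells using a gene and less RNA per cell cannot be told apart.

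**Figure D1:**
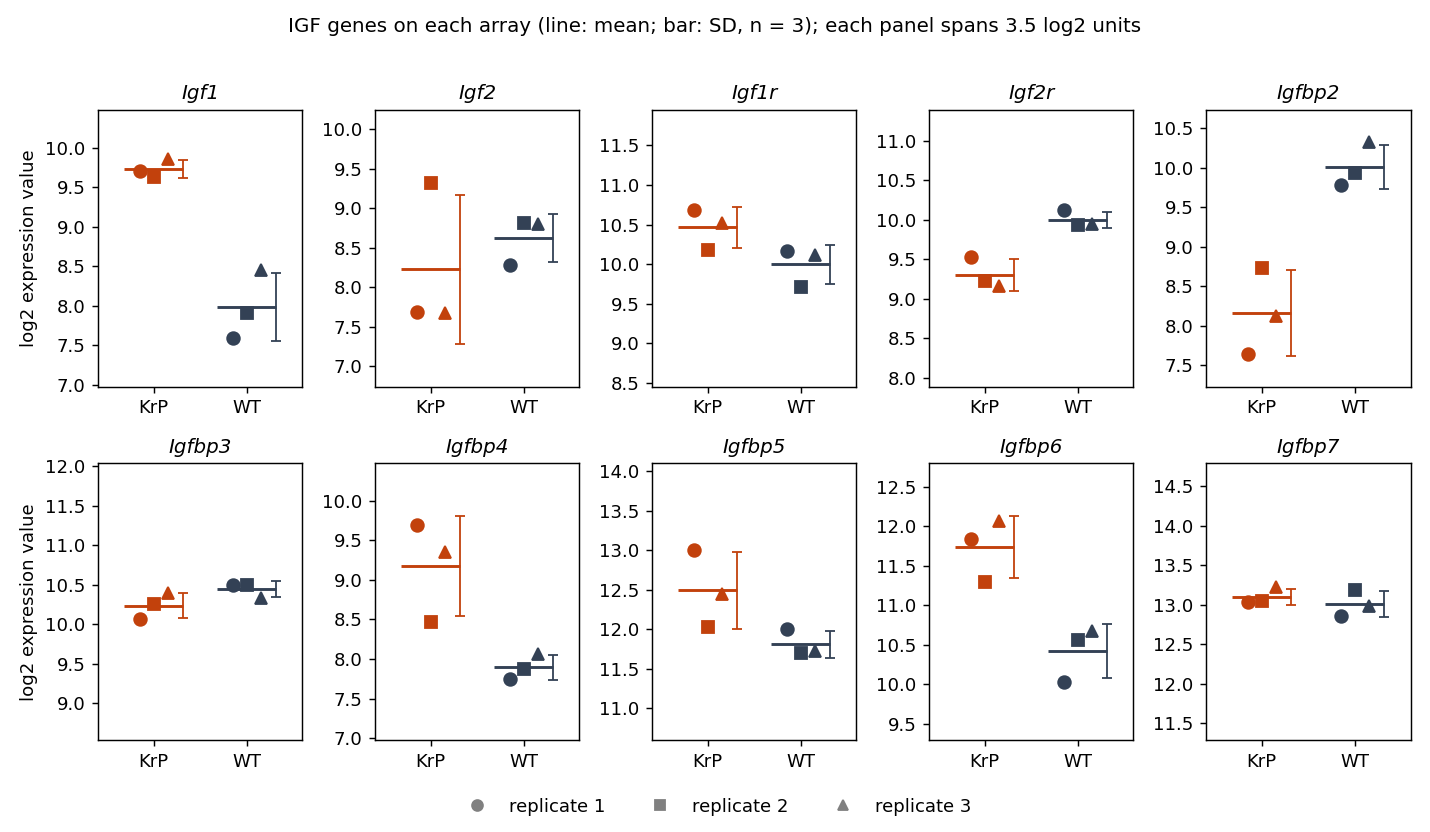
Log2 expression value of each IGF gene on each array, with KrP to the left of WT in every panel; points are arrays shaped by replicate number, lines are means and bars are SD (n = 3). Each panel has its own level but the same span, so distances within panels compare, and Igf1 and Igfbp2 show the widest gaps between the groups.

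The promoter sequences of the 4 genes that passed are shown because these genes moved in opposite directions, 2 up and 2 down. Each run is the 250 bases before the first RefSeq transcript start of the gene on GRCm38.p6, 5′ to 3′ on the strand of the gene, and capitals mark matches to the 5 motifs listed after them. The windows are chr10:87860861-87861110 (+) for Igf1, chr15:102143936-102144185 (+) for Igfbp6, chr1:72824230-72824479 (+) for Igfbp2 and chr17:12769707-12769956 (-) for Igf2r.
Igf1: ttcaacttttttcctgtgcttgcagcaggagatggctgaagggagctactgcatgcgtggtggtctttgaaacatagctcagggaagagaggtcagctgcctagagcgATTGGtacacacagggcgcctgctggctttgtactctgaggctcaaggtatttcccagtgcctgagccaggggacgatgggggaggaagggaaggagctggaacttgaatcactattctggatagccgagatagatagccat
Igfbp6: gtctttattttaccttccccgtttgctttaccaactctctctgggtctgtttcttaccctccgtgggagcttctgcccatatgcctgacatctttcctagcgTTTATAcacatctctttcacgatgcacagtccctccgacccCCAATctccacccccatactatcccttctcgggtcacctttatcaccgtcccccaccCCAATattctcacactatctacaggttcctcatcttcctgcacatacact
Igfbp2: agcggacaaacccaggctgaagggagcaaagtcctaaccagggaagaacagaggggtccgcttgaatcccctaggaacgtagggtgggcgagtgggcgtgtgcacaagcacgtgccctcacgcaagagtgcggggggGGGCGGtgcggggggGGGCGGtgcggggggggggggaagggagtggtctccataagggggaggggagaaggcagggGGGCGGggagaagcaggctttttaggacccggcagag
Igf2r: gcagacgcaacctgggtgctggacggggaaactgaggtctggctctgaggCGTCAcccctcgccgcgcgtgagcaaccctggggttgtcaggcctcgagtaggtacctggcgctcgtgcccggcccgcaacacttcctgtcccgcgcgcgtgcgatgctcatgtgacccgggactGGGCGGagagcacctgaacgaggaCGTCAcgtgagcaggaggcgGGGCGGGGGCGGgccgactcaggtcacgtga

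The motifs, searched on both strands, were the TATA box TATAAA, the CCAAT box CCAAT, the GC box GGGCGG, the cAMP response core TGACG and the forkhead site TGTTTAC. No base in these windows belonged to matches of different motifs. The windows of the 2 genes that rose held CCAAT boxes, 1 in Igf1 and 2 in Igfbp6, with a TATA box in Igfbp6 and no GC box. Those of the 2 that fell held 3 GC boxes each, with 2 cAMP response cores in Igf2r and no CCAAT or TATA box. GC boxes also lay in the first windows of genes that did not fall, with 4 in Igfbp7 and 2 in Igf1r, so no link to direction is drawn. The base composition of the 4 printed windows also differed, with 5 CpG pairs for Igf1, 7 for Igfbp6, 14 for Igfbp2 and 27 for Igf2r, against a median of 6.0 over all windows. Among 32851 RefSeq windows of the same length, 33.8% held a CCAAT box, 32.7% a GC box, 17.8% the cAMP response core, 12.4% a TATA box and 3.17% the forkhead site. Of the 14 windows annotated for the 10 genes, none held the forkhead site. Such matches are descriptions of letters, and which transcript start is used in these cells was not measured. The promoter windows were taken from RefSeq, where all 10 genes matched.

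Among the ligands, Igf1 carried the clearest difference. Its log2 value was 9.71, 9.63 and 9.86 on the KrP arrays, against 7.60, 7.91 and 8.45 on the WT arrays. The KrP arrays lay close together, all above the highest WT array by more than 1 log2 unit, and most of the spread was in WT. Igf1 averaged 9.73 ± 0.12 in KrP and 7.99 ± 0.43 in WT samples (SD, n = 3 each), a log2 fold change of 1.75 ± 0.21 SE (limma adjusted p = 0.00708). It ranked 78 of 22180 by absolute log2 fold change. The call ended without KrP 3 (limma adjusted p = 0.0604) and stood in the other 5 fits that left out an array.

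Igf2, the imprinted fetal growth factor, had log2 values of 7.69, 9.32 and 7.67 on the KrP arrays, against 8.28, 8.81 and 8.80 on the WT arrays. KrP 2 was the highest of the 6 arrays, and KrP 1 and KrP 3 were the lowest 2, so the groups overlapped. The log2 fold change was -0.40 ± 0.42 SE, with a 95% confidence interval from -1.36 to 0.56 (limma adjusted p = 0.713). Without KrP 2 it was -0.95 (limma adjusted p = 0.0342). The SD of Igf2 was 0.95 in KrP and 0.30 in WT samples, the widest KrP spread among the 10 genes.

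The receptors differed in opposite directions, with a call for Igf2r only. Its log2 value was 9.53, 9.22 and 9.16 on the KrP arrays, against 10.12, 9.93 and 9.95 on the WT arrays. Every KrP array was below every WT array. Igf2r fell by 0.70 ± 0.14 SE on the log2 scale (limma adjusted p = 0.0453), a call near the threshold. It stood in 1 of the 6 fits that left out an array, the one without KrP 1, and the adjusted p reached 0.240 without KrP 3. It also ended with median centring (limma adjusted p = 0.0560), and with the replicate block the adjusted p was 0.00983.

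Igf1r, which carries the growth signal of both ligands, had log2 values of 10.69, 10.18 and 10.52 on the KrP arrays, against 10.17, 9.71 and 10.11 on the WT arrays. The lowest KrP array lay just above the highest WT array. The log2 fold change was 0.47 ± 0.17 SE, with a 95% confidence interval from 0.06 to 0.87 (limma adjusted p = 0.242). Array by array the order within the groups was alike, with replicate 2 lowest and replicate 1 highest in both. The differences between same-numbered arrays were 0.52, 0.47 and 0.41, and the adjusted p was 0.0253 with the replicate block. Igf1r passed in none of the 6 fits that left out an array (limma adjusted p from 0.0818 to 0.539).

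Of the 6 binding proteins, Igfbp2 had the largest absolute fold change. Its protein binds both ligands. Igfbp2 had log2 values of 7.64, 8.73 and 8.12 on the KrP arrays, against 9.78, 9.93 and 10.32 on the WT arrays. All KrP arrays were over 1 log2 unit below the lowest WT array, and KrP 2 was the nearest to WT. The means were 8.16 ± 0.55 in KrP and 10.01 ± 0.28 in WT samples (SD, n = 3 each), a log2 fold change of -1.85 ± 0.27 SE (limma adjusted p = 0.0161, rank 61 of 22180). The call ended without KrP 3 (limma adjusted p = 0.104), without WT 2 (0.0527) and without WT 3 (0.0882).

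Igfbp6, whose protein prefers IGF-II over IGF-I, had log2 values of 11.84, 11.30 and 12.06 on the KrP arrays, against 10.03, 10.56 and 10.68 on the WT arrays. The groups did not overlap, with KrP 2 again the KrP array nearest to WT. The log2 fold change was 1.31 ± 0.23 SE (limma adjusted p = 0.0304). Leaving out any array but KrP 2 ended the call, with adjusted p from 0.0717 without KrP 1 to 0.152 without KrP 3. Without KrP 2 the adjusted p was 0.00757.

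Igfbp4, a binding protein that is cut by the protease Pappa, had log2 values of 9.70, 8.47 and 9.35 on the KrP arrays, against 7.75, 7.88 and 8.06 on the WT arrays. The WT arrays were tight and the KrP arrays spread over more than 1 log2 unit, with all of them above WT. Its log2 fold change of 1.28 ± 0.29 SE was close to that of Igfbp6, but it did not pass (limma adjusted p = 0.0707). It passed with the replicate block (adjusted p = 0.0243) and without KrP 2 (0.00329).

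Igfbp5 lies near Igfbp2 on the same chromosome, on the opposite strand, and its protein binds extracellular matrix as well as the ligands. It had log2 values of 13.00, 12.03 and 12.45 on the KrP arrays, against 12.01, 11.70 and 11.73 on the WT arrays. KrP 2 lay just above WT 1, so the gap between the groups was narrow. The log2 fold change was 0.68 ± 0.22 SE (limma adjusted p = 0.178), with the opposite sign to that of its neighbour. It passed with the replicate block (adjusted p = 0.0226) and without KrP 2 (0.0278).

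Igfbp3 and Igfbp7 gave the smallest differences. Igfbp3, the main carrier of IGFs in blood, had log2 values of 10.07, 10.25 and 10.39 on the KrP arrays, against 10.50, 10.50 and 10.33 on the WT arrays. The groups overlapped through WT 3, and the 95% confidence interval of the log2 fold change ran from -0.49 to 0.07 (limma adjusted p = 0.463). Igfbp7, a related secreted protein that binds IGFs weakly, had log2 values of 13.04, 13.05 and 13.22 on the KrP arrays, against 12.86, 13.19 and 12.98 on the WT arrays. These groups overlapped too, and the confidence interval ran from -0.13 to 0.32 (limma adjusted p = 0.712). Both intervals exclude a 2-fold change, which is 1 log2 unit, in either direction.

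**Figure D2:**
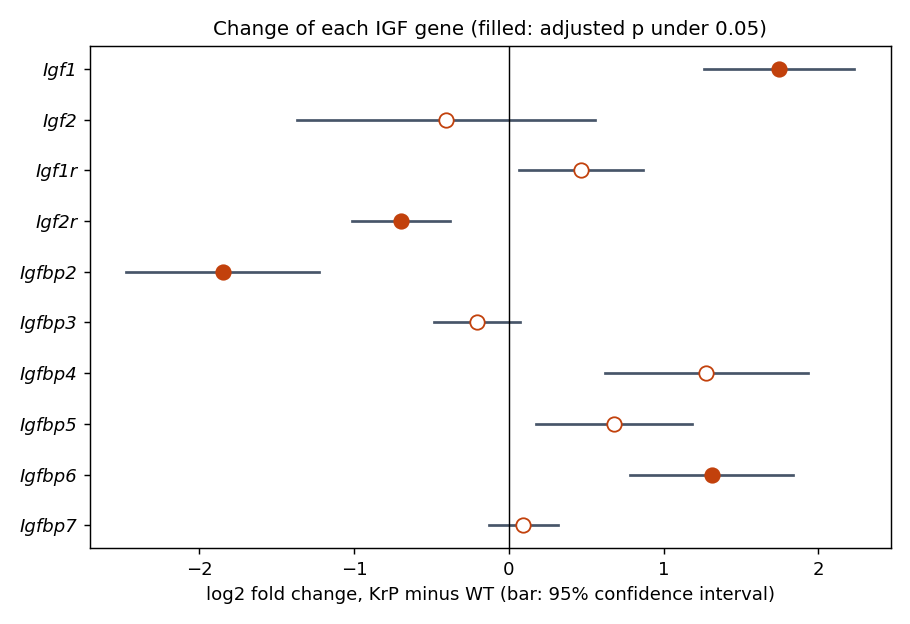
Log2 fold change of each IGF gene, KrP minus WT, with its 95% confidence interval from limma; filled points passed at an adjusted p under 0.05. Igf1 (1.75) and Igfbp2 (-1.85) lie farthest from 0 on opposite sides, and the interval of Igf2 is the widest.

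Differences between related genes were set array by array, as the log2 value of one minus that of the other. Igf1 minus Igf2 was 2.02, 0.31 and 2.19 on the KrP arrays, against -0.68, -0.90 and -0.35 on the WT arrays. Igf1r minus Igf2r was 1.16, 0.96 and 1.36 in KrP, against 0.05, -0.22 and 0.16 in WT. The receptor difference was thus 1.16 log2 units higher in KrP samples, with an SD of 0.20 in each group. Igfbp2 minus Igfbp5 was -5.36, -3.30 and -4.33 in KrP, against -2.23, -1.77 and -1.41 in WT. Igfbp6 minus Igfbp2 was 4.20, 2.57 and 3.94 in KrP, against 0.25, 0.63 and 0.36 in WT. For all 4 pairs the groups did not overlap. The exact two-sided permutation test gave p = 0.1 for each, also after Benjamini-Hochberg adjustment over the 4 pairs, which is the smallest p that 3 against 3 samples allow. In every pair but that of Igf1 and Igf2, each gene by itself separated the groups, in opposite directions, so that outcome was fixed by the choice of the pair and is no further result. In the pair of Igf1 and Igf2, Igf1 by itself separated the groups, so the gap of that pair is not independent of the Igf1 change. Each difference holds a constant from the 2 probe sets, so its change between groups is meaningful and its level is not. The pairs were chosen with the changes of these genes known.

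KrP 2 stood nearer to WT than the other KrP arrays for most IGF genes, as it did for most of all genes that passed. It was the KrP array closest to the WT mean for 7 of the 10 genes, namely Igf1, Igf2, Igf1r, Igfbp2, Igfbp4, Igfbp5 and Igfbp6. For Igf1 it was only slightly closer than KrP 1 (9.63 and 9.71). For Igf2 it lay above every WT array (9.32), while KrP 1 and KrP 3 lay below them. Over all 22180 genes it was closest for 42.9%, and over the 483 genes that passed for 64.2%. Without KrP 2, 6 of the 10 IGF genes passed limma, where 5.03% of all genes did. Those 6 were Igf1, Igf2, Igfbp2, Igfbp4, Igfbp5 and Igfbp6, and Igf2r then just missed (limma adjusted p = 0.0530). Without KrP 3, 0 of the 10 passed limma, where 0.383% of all genes did, and 6 of the 10 had an unadjusted p under 0.05, where 10.6% of all genes did. No cause of the position of KrP 2 was tested.

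**Figure D3:**
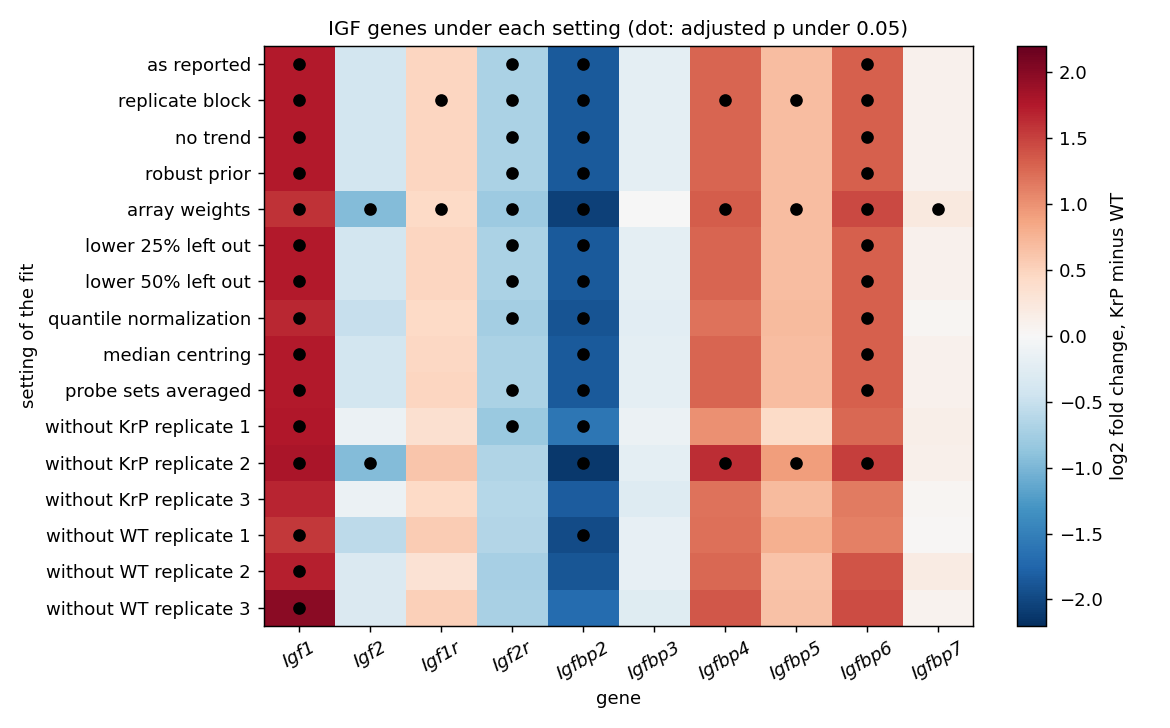
Log2 fold change, KrP minus WT, of each IGF gene (columns) under each setting of the limma fit (lines of cells), in colour from blue (lower in KrP) to red (higher in KrP), with a dot where the adjusted p was under 0.05. No column changes sign, although Igf2 runs from -0.12 to -0.96, and the dots come and go, with none left without KrP 3.

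Genes that act on the IGF system outside these 10 were described from lists of proteases, domain relatives, receptor signalling, growth hormone control, imprinted growth genes and mannose 6-phosphate sorting. Of 88 such genes measured, 5 rose and 2 fell, which is 7.95% of them, against 2.18% of all genes (1.15% higher and 1.03% lower). With the replicate block 7 rose and 10 fell, where 8.35% of all genes passed, 5.33% higher and 3.02% lower. These shares over all genes also stand beside the counts of each list below. The lists were drawn up with earlier results of these data known, so all such counts are a description. The median log2 fold change of the 88 genes was 0.03.

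Growth hormone is the main inducer of Igf1 in many tissues, and 2 of the 10 genes in its list passed, in opposite directions. The receptor Ghr had log2 values of 8.05, 8.17 and 8.00 on the KrP arrays, against 8.89, 9.0 and 9.04 on the WT arrays. Every KrP array was lower, by 1.87-fold on average (limma adjusted p = 0.0103, up to 0.0929 when an array was left out, with the call lost without KrP 3 and without WT 3). Socs2, which damps growth hormone receptor signalling and is induced by it, had 12.59, 12.35 and 12.51 in KrP, against 11.60, 11.49 and 11.53 in WT. It was higher on every KrP array and rose 1.92-fold (limma adjusted p = 0.00299), a call that held in all 6 fits that left out an array. The signal transducers of this receptor did not pass, with log2 fold changes of 0.45 for Stat5a and -0.51 for Stat5b, nor did Socs3 (0.34). The median of the list was 0.03.

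Proteases that can cut binding proteins, with their regulators and carriers, gave 2 rises and no fall among 13 genes (3 and 2 with the replicate block; list median 0.05). The metalloproteinase Mmp19 had log2 values of 13.75, 13.30 and 13.58 on the KrP arrays, against 12.30, 12.43 and 12.17 on the WT arrays. It rose 2.37-fold (limma adjusted p = 0.00338) and passed in all 6 fits that left out an array. The serine protease Htra1 had 11.70, 11.59 and 11.73 in KrP, against 10.21, 10.90 and 10.82 in WT, and rose 2.04-fold (limma adjusted p = 0.0291). Its call ended without KrP 1, KrP 3 or WT 3, with adjusted p up to 0.162. Prss23, Stc1, an inhibitor of Pappa, and Adamts1 had log2 fold changes of -0.62, 0.60 and -0.57. These 3 passed with the replicate block (adjusted p = 0.0233, 0.00983 and 0.0212) and not without it.

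Proteins with a domain like that of the binding proteins gave 2 rises and 1 fall among 13 genes (2 and 2 with the replicate block, list median -0.01). Htra1 was one of the rises and is counted in both lists. The other was its relative Htra4, at 11.78, 10.82 and 11.56 on the KrP arrays, against 7.32, 8.42 and 8.10 on the WT arrays, which is 10.9-fold higher (limma adjusted p = 0.00299). Ccn3, a matrix-associated signalling protein, was at 8.06, 8.54 and 8.07 in KrP, against 8.89, 9.11 and 9.20 in WT, and was 1.79-fold lower (limma adjusted p = 0.0477). That call ended with quantile normalisation, just over the threshold, with median centring (limma adjusted p = 0.0502) and without any array but KrP 2 (up to 0.240). Esm1, Kazald1 and Ccn2 had log2 fold changes of -0.68, 0.54 and -0.30 and did not pass, Esm1 passed with the replicate block (adjusted p = 0.0498), and Ccn2 ranged from 8.48 to 12.30 among the KrP arrays.

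Of 30 genes of IGF and insulin receptor signalling, 1 rose and none fell (1 and 4 with the replicate block; list median 0.05). The riser was Inppl1, a lipid phosphatase that acts on the product of PI3-kinase, at 9.70, 8.88 and 9.33 on the KrP arrays, against 8.39, 7.76 and 8.12 on the WT arrays. It was 2.32-fold higher (limma adjusted p = 0.0448, or 0.00205 with the replicate block), and the call ended with median centring (0.0536) and without any array but KrP 2 (up to 0.208). The docking proteins Irs1 and Irs2, which link the receptors to PI3-kinase, had log2 fold changes of -0.56 and -0.79, and the transcription factor Foxo1 of -0.50. These 3 did not pass (limma adjusted p = 0.146, 0.206 and 0.107). With the replicate block they did (0.0204, 0.0385 and 0.0291), as did the PI3-kinase subunit Pik3r1 (log2 fold change -0.42, adjusted p = 0.0486), chosen after its value was seen.

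Imprinted growth genes and binders of IGF mRNA gave no call beside Igf2r among 15 measured, and list members Ndn and Zim1 had log2 fold changes of 0.56 and 0.54 (limma adjusted p = 0.269 and 0.346). Ndn passed with the replicate block (adjusted p = 0.0240). In the list for mannose 6-phosphate sorting, Igf2r was the 1 called gene of 12 (2 fell with the replicate block). The list member with the next largest change was Gnptg, at -0.43 (limma adjusted p = 0.231, or 0.0385 with the replicate block). Sorl1 and Gga3 had -0.16 and 0.15. The medians of these lists were both 0.02.

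**Figure D4:**
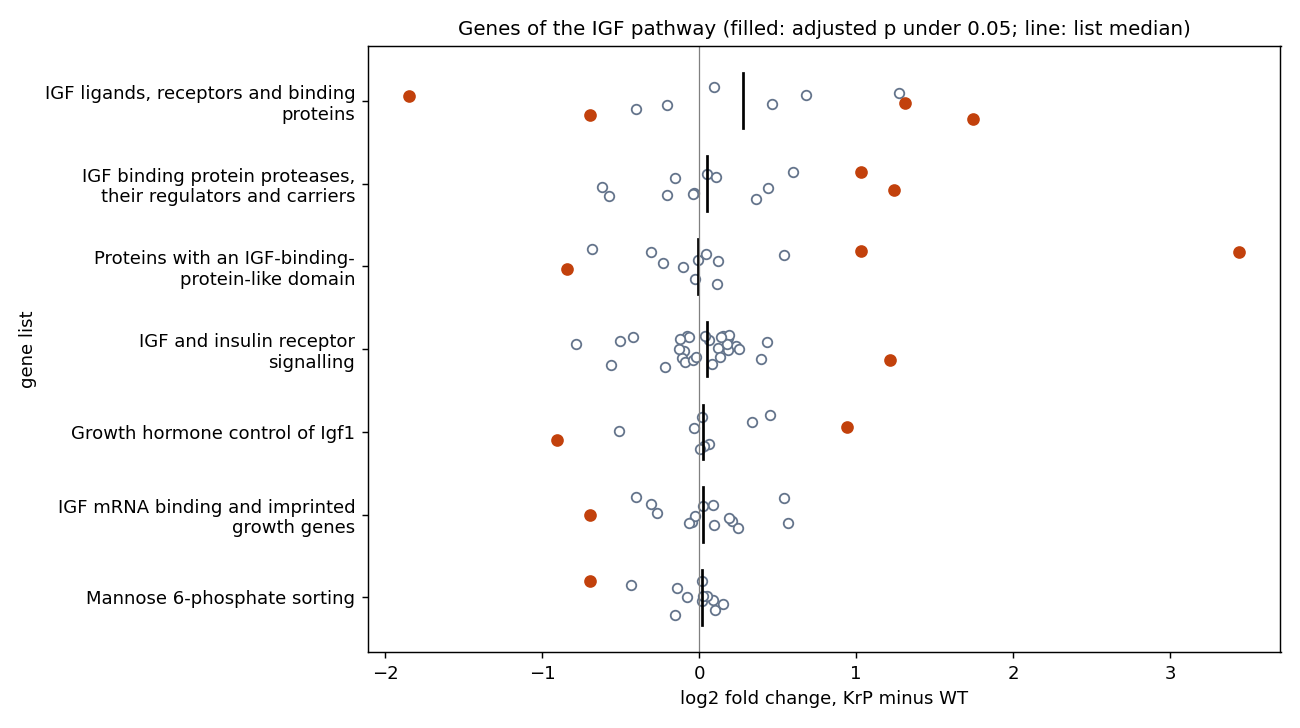
Log2 fold change, KrP minus WT, of each measured gene in the lists around the IGF system, 1 line of points per list, with filled points for an adjusted p under 0.05 and a vertical bar at the list median. The medians of the 6 surrounding lists lie between -0.01 and 0.05, with single genes such as Htra4 (3.44) far from them.

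Similarity of pattern was measured as the root mean square difference between the centred log2 values of 2 genes over the 6 arrays, against 12880 other genes above background. The 5 genes most like Igf1 were the small proteoglycan Ogn (0.144 log2 units), the matrix protein Spon1 (0.199), Tmem266 (0.225), the transcription factor Sim2 (0.227) and the relaxin receptor Rxfp1 (0.231). Over all genes compared the median distance to Igf1 was 0.911. Those most like Igfbp2 were the Wnt inhibitor Dkk2 (0.137), the ferritin receptor Scara5 (0.218), Cd274, which encodes PD-L1 (0.239), the retinoic acid hydroxylase Cyp26b1 (0.258) and the vitamin D receptor Vdr (0.263), with a median distance of 1.01 over all genes. Such a ranking over 6 arrays in 2 groups picks genes with the same difference between groups.

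Of 73 measured markers of other cell types 1 rose and 4 fell, which is 6.85% of them against 2.18% of all genes, or 2 and 5 with the replicate block, 9.59% against 8.35%. As a guide to background, the mean levels of 1105 olfactory receptor genes, a family of the nasal epithelium, had a 95th percentile of 6.28, and all 10 IGF genes lay above it on every array. All 10 fibroblast markers lay above it too, and none of them passed limma (5 had an unadjusted p under 0.05, as did 16.0% of all genes, and 3 passed with the replicate block, as did 8.35%). Those 3 all rose, as did 5.33% of all genes with the block. By sign, 8 of the 10 fibroblast markers were higher in KrP and 2 lower, with a list median of 0.455. The mean log2 level of the fibroblast list ranged from 11.79 to 12.315 in KrP and from 11.385 to 11.96 in WT arrays. Macrophages can express Igf1 strongly. Of 14 leukocyte and macrophage markers 1 rose, Csf1r, at 7.92 ± 0.07 in KrP and 7.19 ± 0.19 in WT samples (SD, n = 3 each; limma adjusted p = 0.0347, or 0.0604 with quantile normalisation). The mean log2 level of that list ranged from 6.10 to 6.23 in KrP and from 6.11 to 6.50 in WT arrays. Averaged over the 6 arrays, 5 of the 14 markers lay above the background guide. Beside Csf1r these were Cd68, at 9.34 in KrP and 9.48 in WT samples, C1qa, at 6.66 in KrP and 6.85 in WT, Coro1a, at 6.46 in KrP and 6.79 in WT, and Fcer1g, at 6.31 in KrP and 6.53 in WT. None of these other 4 passed limma (adjusted p from 0.340 to 0.795). Among the 9 markers not above the guide, Laptm5, Tyrobp and C1qb lay close to it. They averaged 6.20, 6.16 and 6.16 in KrP, against 6.30, 6.25 and 6.14 in WT samples. Ptprc, Cd52, Adgre1, Mrc1, Lyz2 and Itgam averaged between 4.65 and 5.92 in either group. Of 10 endothelial markers 2 fell, Tek and Cldn5 (3 with the replicate block), and the list ranged from 6.45 to 6.64 in KrP and from 6.60 to 6.89 in WT arrays. The endothelial receptor Kdr, chosen after its values were seen, had the log2 values 7.76, 6.84 and 7.31 in KrP, against 9.28, 8.19 and 8.67 in WT. The groups did not overlap, and the log2 fold change of -1.41 just missed (limma adjusted p = 0.0658) but passed with the replicate block (0.00158) and with quantile normalisation (0.0375). By sign, 7 of the 10 endothelial markers were lower and 3 higher, with a list median of -0.05. Cdh5, also chosen after its values were seen, was at 8.33 in KrP and 7.79 in WT samples (log2 fold change 0.54, limma adjusted p = 0.304). In the pericyte and smooth muscle list 1 of 11 fell, Cspg4 (1 rose and 1 fell with the replicate block), and in the adipocyte list 1 of 6 fell, Lpl, with log2 fold changes of -1.10 and -1.79. The riser with the block was Acta2, the smooth muscle actin, chosen after its values were seen, with a log2 fold change of 1.31 (limma adjusted p = 0.154, or 0.0138 with the replicate block). The call of Lpl stood in all 6 fits that left out an array, while those of Csf1r, Tek, Cldn5 and Cspg4 each ended without KrP 3 and without WT 3, with adjusted p up to 0.196. Tek passed in none of the 6. The pericyte and adipocyte lists had mean levels from 7.34 to 7.77 and from 6.34 to 6.79 in KrP, against 7.24 to 7.63 and 6.87 to 6.97 in WT. No keratinocyte, melanocyte, mast cell, Schwann cell or muscle marker passed limma (1, 2, 0 and 1 had an unadjusted p under 0.05 among 12 keratinocyte, 10 melanocyte and mast cell, 4 Schwann cell and 6 muscle markers). WT 2 stood apart most in the keratinocyte list, whose mean log2 level ranged from 6.27 to 6.56 on the KrP arrays and was 6.39, 7.19 and 6.46 on the WT arrays. By smaller margins it was also the highest of the 6 arrays in the endothelial (6.89), leukocyte (6.50) and melanocyte and mast cell (5.92) lists. The same held for the Schwann cell (5.90), adipocyte (6.97) and muscle (6.62) lists. In the pericyte list it was the highest WT array (7.63), below KrP 3 (7.77). On WT 2, Krt17 was at 9.06, against 5.92 and 6.10 on the other WT arrays, and Cdh1 at 7.74, against 6.63 and 6.55, both picked after their values were seen. Without WT 2, 1 of the 10 IGF genes passed limma, Igf1, where 1.15% of all genes did, and all 10 kept their direction. Log2 fold changes without WT 2 were 1.71 for Igf1 (limma adjusted p = 0.0329) and 1.38 for Igfbp6 (0.0761). They were -1.89 for Igfbp2 (0.0527), -0.73 for Igf2r (0.102) and 0.32 for Igf1r (0.483). The melanocyte and mast cell list ranged from 5.74 to 5.76 in KrP and from 5.62 to 5.92 in WT arrays, and the muscle list from 6.46 to 6.59 in KrP and from 6.37 to 6.62 in WT arrays. The Schwann cell list lay from 5.70 to 5.76 in KrP and from 5.595 to 5.90 in WT arrays. The part of other cells in the IGF results was not tested.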

How the data were processed

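Total RNA from sorted dermal fibroblasts was measured on 6 microarrays, 3 KrP and 3 WT, grouped by the sample titles. The deposited values are on the log2 scale, with 1 for each probe set on each array, and the authors made them with RMA and Partek, which the submitters' processing notes name without versions or roles. They run from 1.72 to 14.32, with array medians from 6.34 to 6.43, and were used as deposited. The build behind the probe sets and any filter on them are not given in the sources read here. The descriptions of KrP 2 and KrP 3 name other keratins than K14, whereas their titles, source names and genotypes name KrP or K14, and these were followed.

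Of 34390 probe sets, 23521 had 1 gene symbol in the platform annotation, 1814 had several and 9055 had none. Names were updated by gene ID through RefSeq (GRCm38.p6) for 23328 of them. Of several probe sets of a gene, the brightest by mean over all 6 arrays was kept. Differences were fitted over all 22180 genes with limma 3.58.1 in R 4.3.3 (lmFit, eBayes with a trend, no filter, no block), with Benjamini-Hochberg adjustment over all genes. The fit was tested on simulated data with independent noise for each gene and array. Those data hold no pairing and no outlying array, so the test does not cover such features. Exact permutation tests used scipy 1.17.1. The number of arrays limits the precision.

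Both groups carry replicate numbers 1 to 3. Deviations from the group means correlated over genes by 0.414, 0.350 and 0.120 between same-numbered arrays. Between arrays of other numbers the values ran from -0.385 to 0.067, the highest for KrP 3 and WT 2, close to the 0.120 of KrP 3 and WT 3. The numbers were therefore treated as a possible pairing only. No label states it. Fits with this number as a block are quoted for the genes of the text whose call they change. Other settings dropped the trend, made the prior robust, weighted arrays, left out the lower 25% or 50% of genes, applied median centring or quantile normalisation, took the mean of probe sets, or left out each array in turn.

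The IGF genes, the lists and the tests were chosen with earlier results of these data known. Apart from genes said to be picked after their values were seen and markers of cell types, the text names the 10 genes, called members of each list with at most 3 uncalled ones of largest change, and the 5 genes nearest in pattern to the called gene with the largest rise and the one with the largest fall. That ranking left out predicted genes, small RNAs, receptor segments and genes below the background guide.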

Additional observations from a re-analysis of the deposited data

How the results depend on the processing

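All 150 refitted log2 fold changes, 10 genes under 15 alternatives each, kept their direction, and so did the 4 pair differences under their alternatives. Calls moved more than sizes. With the replicate block 1851 genes passed, of which 7 were IGF genes and 17 belonged to the surrounding lists, and Igf1r (0.47), Igfbp4 (1.28) and Igfbp5 (0.68) were added at unchanged log2 fold change. The block changed no other call among the 10 genes. With array weights 6410 genes passed, with 9 IGF genes and 32 list genes, adding Igf2 (-0.96), Igf1r (0.43), Igfbp4 (1.33), Igfbp5 (0.68) and Igfbp7 (0.22). The cause of that count was not tested. Igf2r (-0.70) lost its call with median centring. Leaving out each array in turn gave 85 to 1116 genes, 0 to 6 IGF genes and 3 to 9 list genes, with the lowest counts without KrP 3 (for list genes also without WT 3) and the highest without KrP 2. Log2 fold changes then ranged from 1.55 to 1.98 for Igf1, -0.95 to -0.12 for Igf2, 0.32 to 0.61 for Igf1r, -0.81 to -0.62 for Igf2r, -2.13 to -1.58 for Igfbp2, 1.01 to 1.63 for Igfbp4, 0.43 to 0.91 for Igfbp5 and 1.11 to 1.53 for Igfbp6. The other alternatives changed no call among the 10 genes.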
